A study of Caenorhabditis elegans with 4 samples.

Results

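The regions described here are the MRG-1 binding peaks on chromosome IV of *Caenorhabditis elegans*. They were chosen by position alone, as all peaks that the deposited lists place on that chromosome. The list for the whole series held 2209 of its 12447 peaks on chromosome IV, the list of ChIP replicate 1 held 576 of 3283, and that of replicate 2 held 588 of 3184. The study mapped MRG-1 by chromatin immunoprecipitation and sequencing (ChIP-seq) in 2 ChIP samples, with 2 input samples of chromatin DNA that had not been precipitated. The antibody was an affinity-purified rabbit polyclonal raised against part of MRG-1. All samples came from hermaphrodites of strain fem-2(b245), genotype fem-2(b245)III, at 20 °C per the series design. All samples were fixed with formaldehyde, at the same percentage and for the same time. They carry the stage label of young adults with a germline, whereas the growth protocol names gravid adults. The whole worms were ground, so germ cells and body cells were precipitated together, and whether the replicates were separate cultures is not stated in the labels. Wild-type worms are not part of the comparison, and the input samples were not used here, so the peaks stand without a background level.

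MRG-1 is a chromodomain protein of the family of human MRG15 and yeast Eaf3, proteins that read methylated lysine 36 of histone H3 over transcribed genes. In the worm it is needed for germ cells to develop, and it has a part in the pairing of chromosomes in meiosis. The protein fem-2 encodes is a phosphatase of the sex determination pathway, needed for male fates and for making sperm. Chromosome IV is known for carrying most genes for piRNAs (21U-RNAs), small RNAs that guide silencing in the germ line. A table of RefSeq genes in assembly WBcel235 places 14714 of 15363 piRNA genes on it. That assembly is not the build of the peak lists, WormBase WS220, so no gene was placed at a peak, no piRNA gene was set beside one, and no sequence is shown.

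Chromosome IV spanned 17.5 Mb up to the last peak end in the lists. Peaks covered 16.1% of that span in replicate 1 and 10.1% in replicate 2, a mean of 13.1% ± 4.20 (SD, n = 2), and 14.3% in the series list. The number of peaks hardly differed between the replicates, at 32.9 per Mb in replicate 1 and 33.6 per Mb in replicate 2 (33.3 ± 0.485, SD, n = 2). The places marked were less alike, as of 626 places only replicate 1 marked 215 and only replicate 2 marked 56. Peaks overlapped the other replicate about as often on the other autosomes. The shares were 62.7% both there and on chromosome IV in replicate 1. In replicate 2 they were 89.9% there and 90.5% on IV. At 117 places a single peak of replicate 1 spanned several of replicate 2. Width also set the replicates apart. The median peak measured 3322.5 bases in replicate 1 and 2179.5 in replicate 2. A width of 5 kb or more was reached by 214 of 576 peaks in replicate 1, or 37.2% (33.3% over all chromosomes), and 92 of 588 in replicate 2, or 15.6% (16.2% over all chromosomes). These broad peaks held 69.7% of the covered bases in replicate 1 and 39.3% in replicate 2. In the series list the median width was 465 bases and only 101 of the 2209 peaks reached 5 kb. Read counts are not part of the lists, and the depth behind a peak is unknown. With 2 samples of a single group no test between groups exists, and all comparisons below are descriptions.

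The coverage of chromosome IV was highest in its middle part and lowest near its right end. In bins of 500 kb it ran between 2.39% and 33.9% in replicate 1, with a median of 15.8%, and between 0.648% and 23.5% in replicate 2, with a median of 8.995%. The bin from 11000001 to 11500000 was the fullest in replicate 1, at 33.9%, and in the series list, also at 33.9%, while replicate 2 had 18.2% there. Replicate 2 was fullest from 7500001 to 8000000, at 23.5%, where replicate 1 had 28.5% and the series list 28.5%. The emptiest bin was the same in all 3 lists, from 16000001 to 16500000, with 2.39% in replicate 1, 0.648% in replicate 2 and 2.13% in the series list. The next emptiest lay beside it, from 15500001 to 16000000, with 2.83%, 2.23% and 2.35% in the same order of lists. Across the 35 bins coverage in the replicates correlated with a Pearson's r of 0.879 (Spearman's rho 0.855), as a description of neighbouring bins that come from the same libraries.

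**Figure D1:**
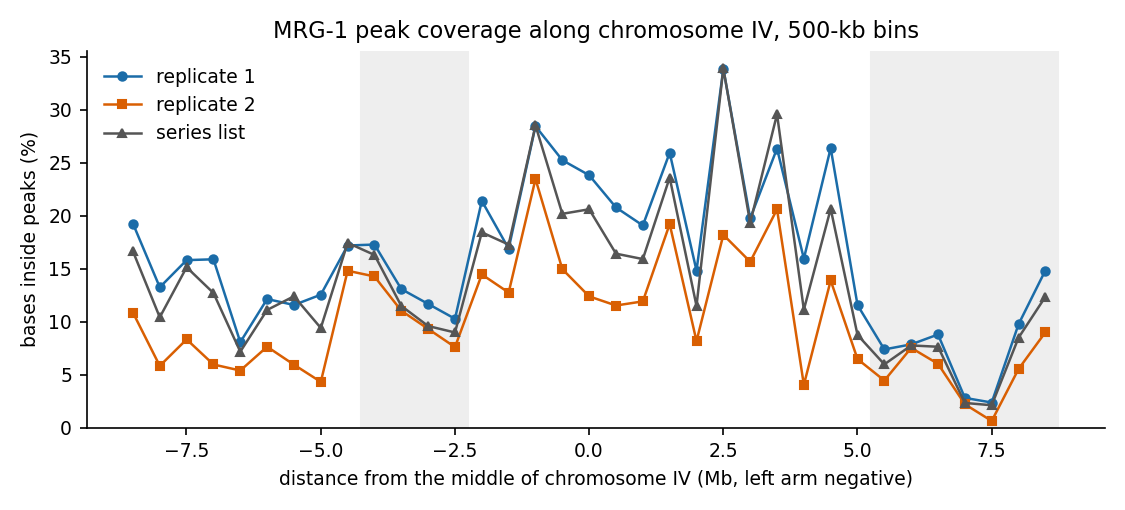
Share of bases inside MRG-1 peaks (y axis, percent) in 35 bins of 500 kb along chromosome IV (x axis, distance of the bin from the middle of the span in Mb). Points are the values of replicate 1, replicate 2 and the series list, and grey marks the 2 tracts with few peaks; all lists reach their lowest value, between 0.648% and 2.39%, in the right-hand tract.

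Replicate 1 had more covered bases than replicate 2 in all 35 bins, but by very different factors, between 1.04-fold and 3.93-fold with a median of 1.65. The smallest excess was in the bin from 14500001 to 15000000, where peaks covered 7.87% in replicate 1 and 7.54% in replicate 2. The largest was from 12500001 to 13000000, with 15.96% in replicate 1 and 4.06% in replicate 2. In that bin replicate 1 had 30 peaks with a median score of 197, of which replicate 2 met 10, and replicate 2 had 10 peaks with a median score of 214. The next bin, from 13000001 to 13500000, was the most crowded of replicate 1, with 36 peaks at a median score of 166, and replicate 2 met 15 of these. The score is the peak caller's own value, used here to rank peaks within a list. The median score on chromosome IV was 821 in replicate 1, 320 in replicate 2 and 7.37 in the series list. These crowded bins thus held mostly weak calls of replicate 1, many without a partner in replicate 2.

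The 2 sides of the chromosome were covered almost alike. Right of the middle peaks covered 16.0% in replicate 1 and 9.75% in replicate 2, and left of the middle 16.1% in replicate 1 and 10.5% in replicate 2. The ratio of right to left was 0.991 in replicate 1, 0.927 in replicate 2 and 0.973 in the series list. The outermost parts were less alike. The last 4.37 Mb on the right had 22.4 peaks per Mb in replicate 1 (19.4 in replicate 2), and the first 4.37 Mb on the left had 40.7 in replicate 1 and 30.4 in replicate 2. The total for the right side joins a well covered part next to the middle, with 22.1% in replicate 1 and 13.5% in replicate 2, to the last 4.37 Mb, with 9.93% in replicate 1 and 6.03% in replicate 2.

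Chromosome IV had 2 tracts with few peaks. A tract was defined, after the profile had been seen, as at least 2 Mb of successive bins in which both replicates had fewer peaks per Mb than their mean for the chromosome. The left tract ran from 4500001 to 6500000 and the right tract from 14000001 to 17493817. Together they made up 31.4% of the span, and held 14.8% of the chromosome's peaks in replicate 1, 16.8% in replicate 2 and 14.3% in the series list. With bins of 250 kb only the right tract met the definition, from 13750001 to 17250000. With bins of 1 Mb both did, and the left one then lay from 5000001 to 7000000.

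The few peaks of these tracts scored higher than the many peaks of the rest of the chromosome. In replicate 1 the tracts had 15.5 peaks per Mb with a median score of 2294, against 40.9 peaks per Mb with a median score of 648 on the rest. In replicate 2 they had 18.0 peaks per Mb with a median score of 586, against 40.75 per Mb with a median of 280. The series list showed the same order, with 57.7 peaks per Mb at a median score of 8.89 in the tracts and 158 per Mb at 7.12 on the rest. In that list, however, the right tract (8.12) hardly differed from the part between the tracts (8.05), and the part left of both had 6.32. Between the tracts the median was 883 in replicate 1 and 296 in replicate 2, below each tract in both. A score of exactly 3100, which many strong peaks of the replicate lists share, was carried by 35 of 85 tract peaks (41.2%) and 99 of 491 others (20.2%) in replicate 1, beside 19.7% over all chromosomes. In replicate 2 it was carried by 11 of 99 tract peaks (11.1%) and 17 of 489 others (3.48%), beside 3.64% over all chromosomes. Tract peaks were also wider, with a median of 5152 bases in replicate 1 (3044 on the rest) and 2781 in replicate 2 (2058 on the rest).

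Both tracts had few peaks, but they were not alike in coverage. In the left tract peaks covered 13.1% in replicate 1 and 10.6% in replicate 2, against 19.0% in replicate 1 and 11.5% in replicate 2 on the chromosome outside both tracts. The whole chromosome had 16.1% in replicate 1 and 10.1% in replicate 2, so the left tract was not below it in replicate 2. In the right tract peaks covered 7.68% in replicate 1 and 5.06% in replicate 2. Replicate 1 had 40 peaks in the left tract at a median score of 2717 and a median width of 5440.5 bases, and 45 in the right tract at 1876 and 4211 bases. Replicate 2 had 50 in the left tract at a median score of 618 and 49 in the right tract at 520. Within the right tract peaks of score 3100 or more lay on both sides of its emptiest bins. In replicate 1 there were 9 up to 15500000 and 9 beyond it, and in replicate 2 there were 4 and 4. The first of replicate 1 beyond it, at 15523564 to 15530709, lay inside the second emptiest bin. From 14500001 to 15000000 there were 5 peaks in replicate 1 at a median score of 3100 and 6 in replicate 2 at a median of 2989, and every one of them met the other replicate. From 16000001 to 16500000 the 5 peaks of replicate 1 had a median of 230 and the 3 of replicate 2 a median of 85.5. The best of replicate 1 in that bin, at 16411771 to 16416922, scored 2110, and the best of replicate 2, at 16414186 to 16415572, scored 198.

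**Figure D2:**
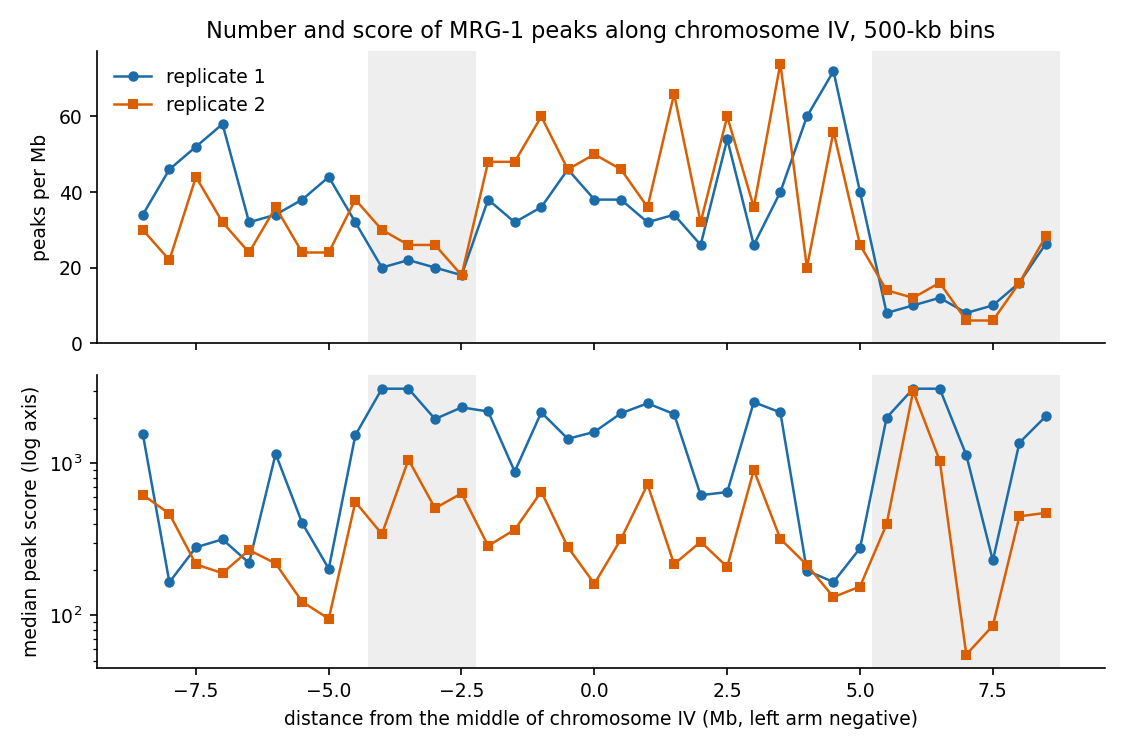
Peaks per Mb (upper panel) and median peak score (lower panel, log axis) in 500-kb bins along chromosome IV (x axis, distance from the middle of the span in Mb) for each replicate. Grey marks the 2 tracts with few peaks, where replicate 1 had a median score of 2294 and replicate 2 of 586, against 648 and 280 on the rest of the chromosome.

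Sparse tracts of the other autosomes did not have such scores. The same definition, each chromosome against its own mean, found 1 tract on chromosome II, 1 on III and 1 on V. The ratio of the median score inside the tracts to that outside was 3.54 on chromosome IV in replicate 1, against 0.347 on II, 0.862 on III and 0.282 on V. In replicate 2 it was 2.09 on IV, against 0.982 on II, 0.874 on III and 0.934 on V. In the series list it was 1.25 on IV, against 0.849, 0.798 and 1.01 on II, III and V. The tracts were chosen by peak number and not by score, but the comparison was made after the scores of chromosome IV had been seen, and the difference between chromosomes was not tested.

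Stretches that neither replicate marked were counted from 100 kb upward. There were 26 on chromosome IV, with a total length of 4.58 Mb, or 26.2% of the span, and a median length of 128 kb. Right of the middle lay 17 of them with 37.3% of that side, and left of the middle 9 with 15.1%. The right tract held 11 of the 26, which took up 71.6% of its length, and the left tract 3, which took up 26.6%. The series list had no peak at all in 17 of the 26 stretches, and 25 of its 2209 peaks in the other 9.

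The 4 longest stretches all lay in the right tract. The longest ran over 457 kb, from 15944236 to 16401703, and the one just left of it over 295 kb, from 15648467 to 15943300. They were parted only by a peak of replicate 2, 935 bases wide (15943301 to 15944235), with a score of 55.2, which neither replicate 1 nor the series list had. Without it they formed a single gap of 753 kb in replicate 1 and, from 15648053 to 16402013, of 754 kb in the series list. The second longest stretch ran over 417 kb, from 15050341 to 15466994, and it was the only one of these 4 with series peaks. It had 9 of them with 2337 bases in all, and the best, 310 bases wide at 15409289 to 15409598, scored 25.7, higher than most series peaks on the chromosome. The third, over 348 kb from 14115975 to 14463507, was empty in all lists.

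The next in length lay left of the middle. The fifth longest was in the left tract, over 271 kb from 4812500 to 5083781, with no series peak. The sixth lay outside the tracts, over 226 kb from 3815633 to 4041721, with 1 series peak of 148 bases (3872808 to 3872955) that scored 4.75.

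The ends of these stretches were marked by strong peaks in some cases and weak ones in others. At the stretch from 14115975 to 14463507 both ends were strong in both replicates. Its left end had a replicate 1 peak of score 2802 (14107597 to 14115946) and a replicate 2 peak of score 2006 (14111415 to 14115974). Its right end had a replicate 1 peak of score 3100 (14463508 to 14469216) and a replicate 2 peak of score 2142 (14463877 to 14467611). That right-hand peak stood alone, since the next stretch of 187 kb began at its other side. At 4812500 to 5083781 the outermost peaks of the replicates differed in which end was the stronger. Its right end scored 3100 in replicate 1 (5083782 to 5093272) and 430 in replicate 2 (5083892 to 5086194). Its left end scored 475 in replicate 1 (4796945 to 4812480) and 1543 in replicate 2 (4804529 to 4812499). Replicate 2 had split the right end into 3 peaks, however, and the best of them scored 2298 (5089402 to 5093087). By the best peak at each end, the right end was thus the stronger in both replicates.

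The longest stretch, whose left end was the replicate 2 peak of score 55.2, had weak ends. Its right end was a replicate 1 peak of score 200 (16401704 to 16403324), and the nearest replicate 2 peak there scored 85.5. At 15050341 to 15466994 the left end scored 106 in replicate 1 (15048290 to 15050340) and 205 in replicate 2 (15045628 to 15047569). The right end scored 3100 in replicate 1 (15466995 to 15475278) and 111 in replicate 2 (15468161 to 15469308). Inside that replicate 1 peak, however, replicate 2 had another peak of score 1878 (15470711 to 15474088). Next to the left end both replicates had a peak of score 3100, 161 bases away in replicate 1 and 195 in replicate 2. In replicate 1 the contrast between the ends thus held for the outermost peaks alone. At the left end of the stretch from 15648467 stood a replicate 1 peak of score 1136 (15646571 to 15648466) that replicate 2 lacked. At 3815633 to 4041721 the left end scored 143 in replicate 1 (3814380 to 3815632) and 94.9 in replicate 2 (3814477 to 3815562). The right end scored 1835 in replicate 1 (4042069 to 4051433) and 460 in replicate 2 (4041722 to 4044741), above the left end in both. This too held for the outermost peaks alone. Farther left lay a replicate 1 peak of score 3100 (3801596 to 3807574) and a replicate 2 peak of score 1695.5 (3801678 to 3805199). The best replicate 2 peak at the right end scored 1077.5 (4045626 to 4050746).

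Over all 26 stretches the nearest peaks on either side scored above the rest of the chromosome on the whole. The 46 such peaks of replicate 1 had a median score of 1828, against 821 for all its peaks on chromosome IV, and the 47 of replicate 2 had a median of 527, against 320. In the series list the 47 nearest peaks had a median of 22.9, against 7.37. Of these 47 series peaks 25 (53.2%) were in the highest-scoring 25% of the chromosome's list. In replicate 1 it was 14 of 46 (30.4%), not far above 25%, and 5 of 46 (10.9%) were in the lowest 25% of its list. In replicate 2 it was 18 of 47 (38.3%), and 7 of 47 (14.9%) were in the lowest 25%.

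**Figure D3:**
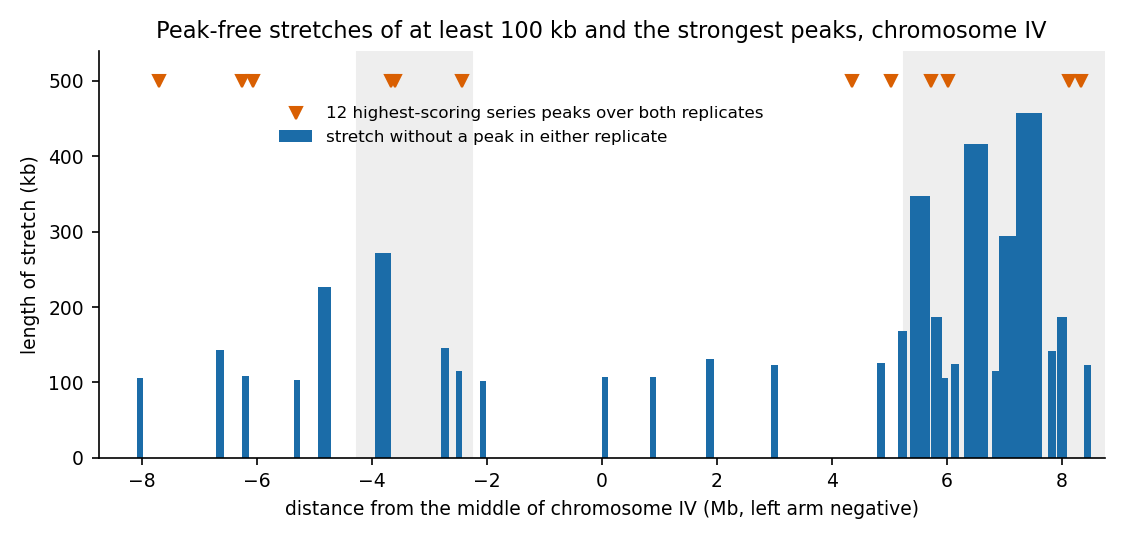
Length in kb (y axis) of the 26 stretches of at least 100 kb without a peak in either replicate, drawn to scale along chromosome IV (x axis, distance from the middle of the span in Mb). Triangles mark the 12 series peaks of highest score that meet both replicates, 7 of which lie in the grey tracts with few peaks.

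The strongest sites were named by a rule, the 12 highest-scoring series peaks out of 724 that met a peak of both replicates. The tracts held 7 of the 12, and 139 of the 724, or 19.2%. Their series scores ran between 90.6 and 126, and their widths between 1421 and 9987 bases. At these places replicate 1 scored 3100 or more at 10 and replicate 2 at 8 of the 12. Of all chromosome IV peaks 23.3% in replicate 1 and 4.76% in replicate 2 scored exactly 3100 (19.7% and 3.64% over all chromosomes). The 12 were chosen for a high series score and for meeting both replicates, so high replicate scores there are not a separate result.

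In the right tract the first of them lay at 16862518 to 16867015, with a series score of 126. It was part of an 18047-base peak of replicate 1 with a score of 2324, and a 7791-base peak of replicate 2 with a score of 3100. The next, at 14464193 to 14468910, scored 109 in the series list, 3100 in replicate 1 and 2142 in replicate 2. It was the most isolated of all 12, with no other peak within 187 kb in replicate 1 or 189 kb in replicate 2. Peaks at 17087518 to 17089476 and 14765732 to 14774331 scored 98.1 and 90.6 in the series list and 3100 in both replicates. In all 4 sites of the right tract both replicates were thus strong.

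In the left tract there were 3. The peak at 5158840 to 5161775 scored 108 in the series list, 3100 in replicate 1 and 1058 in replicate 2, and its nearest neighbour was 21.3 kb away in replicate 1 and 21.85 kb in replicate 2. The peak at 6321921 to 6327852 scored 98.5 in the series list and 3100 in both replicates. The peak at 5084141 to 5093072 scored 94.5 in the series list and 3100 in replicate 1, which had 1 peak there, whereas replicate 2 had split it into 3, the best with a score of 2298. It forms the right end of the stretch that starts at 4812500.

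The other 5 lay on the rest of the chromosome. At 2676427 to 2677847 a narrow peak of 1421 bases scored 106 in the series list, but 2188 in replicate 1 and 363 in replicate 2, the lowest replicate scores of the 12. The peaks at 13091666 to 13101652, 13776075 to 13783473 and 1052236 to 1057947 scored 104, 101 and 96.5 in the series list and 3100 in both replicates. The peak at 2493524 to 2498722 scored 92.4 in the series list, 3100 in replicate 1 and 3112 in replicate 2, and a stretch of 108 kb without a replicate peak began to the right of it.

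Single peaks showed the same. Isolated peaks, with at least 20 kb to the nearest peak of the same list, numbered 70 of 576 in replicate 1, or 12.2% (9.49% on the other autosomes), and 72 of 588 in replicate 2, or 12.2% (11.4% on the other autosomes). In replicate 1 they had a median score of 2510, against 317 for the 238 peaks with a neighbour within 1 kb and 1281 for the 268 in between. In replicate 2 the medians were 615 for isolated peaks, against 244 for 264 peaks with a neighbour within 1 kb and 335 for the 252 in between. Isolated peaks were wider as well, at 5296.5 bases against 2525.5 for the close neighbours in replicate 1, and 2681 against 1963.5 in replicate 2. Replicate 2 met 63 of the 70 isolated peaks of replicate 1, or 90.0% (95% Wilson interval 80.8 to 95.1%), and 48.3% (42.0 to 54.6%) of those with a neighbour within 1 kb. On the other autosomes it met 79.5% (73.9 to 84.1%) and 55.1% (52.1 to 58.1%) in the same order. Replicate 1 met 97.2% of the isolated peaks of replicate 2 and 88.6% of its close neighbours, beside 93.8% and 88.2% on the other autosomes. These intervals, here and below, hold only the counting error of independent peaks. On the other autosomes isolated peaks had higher median scores too, 1982 against 402 for close neighbours in replicate 1, and 471 against 252 in replicate 2, so this feature was not confined to chromosome IV.

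**Figure D4:**
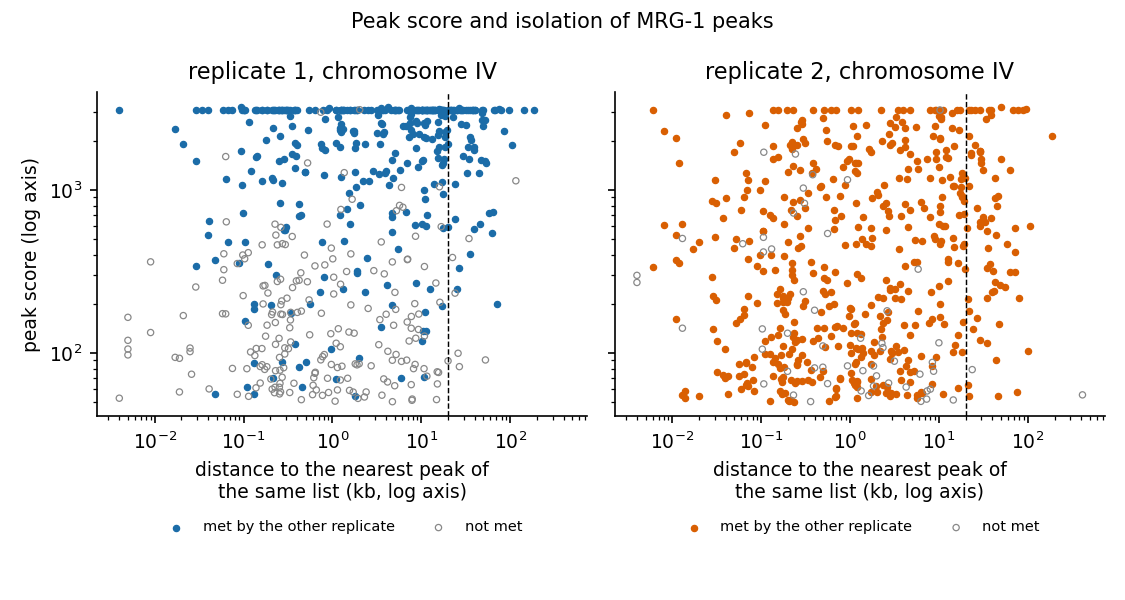
Peak score (y axis, log) against the distance to the nearest peak of the same list (x axis, kb, log) for the 576 peaks of replicate 1 and the 588 of replicate 2 on chromosome IV. Filled points meet a peak of the other replicate, open points do not, and the dashed line stands at 20 kb; right of it the median score was 2510 in replicate 1 and 615 in replicate 2.

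Most peaks sat close to another. The median gap between the end of a peak and the start of the next was 9284 bases in replicate 1 and 8434 in replicate 2, or 8859 ± 601 (SD, n = 2). In replicate 1 24.9% of the 575 gaps were under 1 kb, and in replicate 2 26.7% of 587. The upper tail was long, since 10% of the gaps exceeded 67.8 kb in replicate 1 and 74.2 kb in replicate 2. In the series list the median gap was 443.5 bases and 68.0% of the gaps were under 1 kb, as its peaks lay in runs. When series peaks up to 5 kb apart were joined, 289 runs of 2 or more peaks resulted, the longest with 67.0 kb and the richest with 36 peaks, and 95 peaks stood alone.

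The replicates marked the same places where peaks were strong. Of the 576 peaks of replicate 1, 361 met a peak of replicate 2 by at least 1 base, or 62.7% (58.6 to 66.5%), beside 59.7% over all chromosomes. Of the 588 peaks of replicate 2, 532 met a peak of replicate 1, or 90.5% (87.8 to 92.6%), beside 90.0% over all chromosomes. On the other autosomes the shares were 62.7% in replicate 1 and 89.9% in replicate 2, so chromosome IV lay at the level of the rest. When 50% of both peaks had to overlap, 223 pairs remained, or 38.7% of the replicate 1 peaks (35.9% over all chromosomes) and 37.9% of the replicate 2 peaks (37.0% over all chromosomes). By score, replicate 2 met 21 of the 144 lowest peaks of replicate 1, or 14.6% (9.74 to 21.3%), then 42.4% (34.6 to 50.5%), 94.4% (89.4 to 97.2%) and, of the 144 highest, 143, or 99.3% (96.2 to 99.9%). Replicate 1 met 81.6% (74.6 to 87.1%) of the lowest group of replicate 2 and 96.6% (92.3 to 98.5%) of the highest. The other autosomes, grouped by score in the same way, were much alike. In replicate 1 their shares were 13.2%, 45.15%, 92.85% and 99.4% from the lowest to the highest group. In replicate 2 they were 81.9% in the lowest and 93.2% in the highest. Higher-scoring peaks were also wider, with medians of 1306.5 bases in the lowest and 7184.5 in the highest group of replicate 1, and a wide peak meets another more easily.

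**Figure D5:**
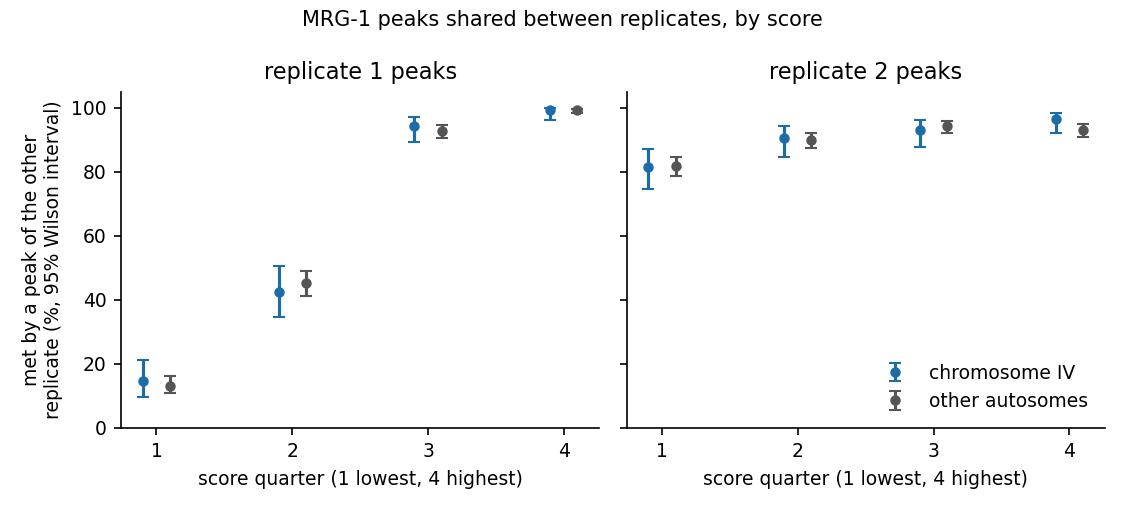
Share of peaks met by a peak of the other replicate (y axis, percent, with 95% Wilson intervals) in 4 groups of equal size by score (x axis), for chromosome IV and the other 4 autosomes. In replicate 1 the share on chromosome IV was 14.6% in the lowest and 99.3% in the highest group, in replicate 2 it was 81.6% and 96.6%.

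Joined into loci, the peaks of both replicates gave 626 separate places on chromosome IV. Both replicates marked 355 of them (56.7%), only replicate 1 marked 215 (34.3%) and only replicate 2 marked 56 (8.95%). Loci of other chromosomes are not given here, but peaks were shared at nearly the same level on the other autosomes. Shared loci had a median extent of 5846 bases, those of replicate 1 alone 1655 and those of replicate 2 alone 1249.5. Where both marked a locus, the best scores correlated with a Spearman's rho of 0.728 (Pearson's r 0.624) across the 355 loci, as a description. At 232 loci each replicate had 1 peak, and at 117 a single peak of replicate 1 spanned several of replicate 2, up to 6. In the pairs with 1 peak each, that of replicate 1 was the wider at 209 of 232, by a median factor of 1.36. It began a median of 370 bases before the replicate 2 peak and ended 386 bases after it, so both edges lay farther out in replicate 1. The bases marked in both lists were 57.9% of what replicate 1 covered and 91.8% of what replicate 2 covered.

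The tracts with few peaks were the better shared part of the chromosome, and more so in replicate 1. In replicate 1 67 of 85 tract peaks met replicate 2, or 78.8% (69.0 to 86.2%), against 294 of 491, or 59.9% (55.5 to 64.1%), on the rest. In replicate 2 it was 94 of 99 tract peaks, or 94.9% (88.7 to 97.8%), against 438 of 489, or 89.6% (86.5 to 92.0%), and these 2 intervals overlapped. Over all chromosomes the shares were 59.7% in replicate 1 and 90.0% in replicate 2. The left tract stood highest, with 35 of 40 peaks of replicate 1 and 49 of 50 of replicate 2. In the right tract it was 32 of 45 (71.1%, 56.6 to 82.3%) in replicate 1 and 45 of 49 (91.8%, 80.8 to 96.8%) in replicate 2. Between the tracts the shares were 65.7% (60.2 to 70.8%) in replicate 1 and 90.3% (86.8 to 93.0%) in replicate 2. The intervals of the right tract overlapped these. Left of both tracts, from the chromosome's left end to 4500000, replicate 2 met 93 of 185 peaks of replicate 1, or 50.3% (43.1 to 57.4%), whose median score was 341. The tracts of other autosomes were the less shared parts in replicate 1, at 47.4% on II, 59.0% on III and 56.9% on V. Outside those tracts the shares were 67.1%, 64.3% and 66.2%. In replicate 2 tract peaks of II (93.9%) and V (94.9%) were shared about as often as those of IV. Those of III were shared less often (80.65%).

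The 3 widest peaks of each replicate were not its strongest, although width rose with score over all its peaks on chromosome IV. Median width was 1306.5 bases in the lowest and 7184.5 in the highest score group of replicate 1. In replicate 2 it was 1036 and 5376 bases. The widest of replicate 1 spanned 30319 bases (7770492 to 7800810) with a score of 69.6, yet it held 6 peaks of replicate 2, the best with a score of 2963. The next, of 25973 bases (10362703 to 10388675), scored 1033 and met 3 peaks of replicate 2, and the third, of 21346 bases (10918938 to 10940283), scored 618 and met 4. The widest of replicate 2 measured 16190 bases (382697 to 398886) and scored 1467, inside a replicate 1 peak of 21286 bases that scored 3100. The second, of 13686 bases (10363637 to 10377322), lay in the second widest of replicate 1. The third, of 12666 bases (6903599 to 6916264), scored 400 where replicate 1 scored 3100.

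A few strong peaks had no partner. In replicate 1 the highest of these was a 7996-base peak at 11399948 to 11407943 with a score of 3100, although a replicate 2 peak lay 2.14 kb away. The second, at 3213143 to 3218040, scored 2992, and the nearest peak of replicate 2 was 68.5 kb off. The third, at 3368523 to 3373994, scored 1599. In replicate 2 the highest was a 7922-base peak at 11310060 to 11317981 with a score of 3086, inside a series peak of 14542 bases, and the nearest replicate 1 peak lay 8.17 kb away. The second, at 4178072 to 4188335, scored 1701 and missed a replicate 1 peak by 10 bases. The third, at 7906822 to 7914450, scored 1658. Series peaks lay over all 6 of them.

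The series list took in nearly all replicate peaks on chromosome IV. It met 576 of 576 peaks of replicate 1 and 577 of 588 of replicate 2, or 98.1% (96.7 to 99.0%), beside 99.9% and 98.2% over all chromosomes. Of its own 2209 peaks, 724 met both replicates, or 32.8% (30.9 to 34.8%), beside 31.5% over all chromosomes, and these held 68.8% of its bases with a median width of 1630 bases. Another 903 met only replicate 1, or 40.9% (42.9% over all chromosomes), and 68 only replicate 2, or 3.08% (3.19%). The 514 that met neither, or 23.3% (22.4%), had a median width of 259 bases and a median score of 4.48.

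Set against the other autosomes as a whole, chromosome IV was a little less covered, and the replicates gave nearly the same value. It lay between chromosome III, with 24.6% in replicate 1 and 16.6% in replicate 2, and chromosome V, with 10.4% in replicate 1 and 6.42% in replicate 2. The ratio of its covered share to theirs was 0.856 in replicate 1, 0.858 in replicate 2 (0.857 ± 0.00137, SD, n = 2) and 0.847 in the series list. Stretches of at least 100 kb without a peak in either replicate numbered 14.9 per 10 Mb on chromosome IV, against 16.4 on II, 7.98 on III and 23.4 on V, and took up 26.2% of IV, against 23.3% of II, 10.1% of III and 41.3% of V. Long peak-free stretches as such were thus found on other autosomes too. No test of these differences was made, since single chromosomes are not replicates.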

How the data were processed

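ChIP-seq peaks of MRG-1 in 2 ChIP samples were analysed from 3 deposited lists, of replicate 1, replicate 2 and the whole series. Alignment used BWA and build ce10 (per the submitters' processing notes), and peaks were called with MACS (replicates) or MACS v2 (series) in build WS220, per the file headers and fields. Neither the peak cutoff nor the control, duplicate removal or any pooling is given in the sources at hand. Scores are the caller's values as deposited by the authors, on an unnamed scale, and were used only within a list. Starts and ends are 1-based, as deposited.

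Peaks on chromosome IV were taken by the sequence name. The span was the highest peak end in any list. A peak belonged to the bin that held its midpoint, while covered bases were cut at bin edges. Peaks met when they overlapped by at least 1 base. Stretches lay between joined peaks of both replicates. Intervals are 95% Wilson intervals. The named peaks were the 12 highest-scoring series peaks over both replicates, per replicate the 3 widest and the 3 highest-scoring without a partner, the ends of the 6 longest stretches, and the best series peak inside each.

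The chromosome, the measures and the named-peak rule were chosen with earlier results of these data known; tracts, isolation and the same tract rule on other chromosomes were added after seeing the values. A planned step for genes needed an annotation in WS220 and was not made. The tools were matplotlib 3.10.9, scipy 1.17.1, pandas 2.3.3 and numpy 2.4.6 under Python 3.11.15, and the counting was tested on simulated lists, where 5 of 5 checks gave the values they were made with.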

Additional observations from a re-analysis of the deposited data

How the results depend on the processing

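The ratio of coverage on chromosome IV to the other autosomes stayed below 1 in the series list (0.847), in the better-scoring 50% (0.869) and as peaks per Mb (0.851), and was 1.07 with the sparse X added to the other chromosomes. The ratio of right to left was 0.897 as peaks per Mb and 0.765 for the last against the first 25% of the span. Shared peaks of replicates 1 and 2 were 38.7% and 37.9% when 50% of both had to overlap (35.9% and 37.0% over all chromosomes), and 79.2% and 86.4% in the better-scoring 50%. With the midpoint inside the other peak, the replicate 1 share was 52.6%. Stretches without a peak numbered 82 from 50 kb and 6 from 200 kb upward, by construction. The median gap was 443.5 bases in the series list, 30907 in the better-scoring 50%, 17762 with peaks within 1 kb merged and 13255 between midpoints. Leaving out a replicate gave 10.1 to 16.1% coverage, ratios of 0.856 to 0.858 and of 0.927 to 0.991, 25 to 33 stretches and gaps of 8434 to 9284 bases. Added settings gave 3.50 Mb of tracts with 250-kb bins in place of 5.49 Mb, and isolated peaks of replicate 1 scored 2.70-fold the others at 50 kb in place of 4.08-fold at 20 kb. The causes of these changes were not tested beyond what the settings do by construction. No paired analysis was possible because the replicate lists belong to ChIP samples, with no input list to pair them with. Read depth is unknown, so a place without a peak is one where the caller made no call.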
